A study of Mus musculus with 60 samples.

Results

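Described here is the early response of CD8 T cells labelled Sh2b3-/-: 5 libraries taken 2 h after stimulation, AR16 to AR20, were set against 5 libraries from unstimulated cells at 0 h, AR6 to AR10. They are 10 of the 60 RNA-sequencing libraries of the study, which follows naive OT-I cells of Sh2b3-/- and Sh2b3+/+ NOD mice over 0, 2, 6 and 24 h, with and without an IL-2 blocking antibody at 24 h. The members were chosen by their labels, as the NOD Sh2b3 -/- libraries of the 2hr and 0hr groups among the libraries numbered AR1 to AR30, which hold 5 of each group at 0, 2 and 6 h. Earlier results of these data were known when they were chosen. Both groups are polyadenylated RNA from naive CD8 T cells isolated from spleen by negative selection, and both carry the OT-I transgene, which gives nearly all CD8 T cells a single receptor against an ovalbumin peptide. Wild-type libraries, Sh2b3+/+, AR11 to AR15 at 2 h and AR1 to AR5 at 0 h, are used only for the comparison of genotypes. The stimulus in the labels is plate-bound anti-CD3 at 10 µg/mL with soluble anti-CD28 at 5 µg/mL, described for cultures of 24 h, and the treatment field of both groups reads None. Time, plating at 37 C and stimulation therefore change together, and their parts in any difference below cannot be told apart. The ages of the mice are not given, and the labels do not say whether the libraries of a group came from separate mice, so p-values measure the spread between these libraries, which may be technical.

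Engagement of the T cell receptor and CD28 activates calcium, MAP kinase and NF-kB signalling. These pathways act on transcription factors already present in the resting cell and switch on immediate early genes, whose products then drive cytokine, receptor and growth genes. SH2B3, also called LNK, is an adaptor protein that restrains signalling from cytokine receptors through JAK kinases. Naive T cells are held in quiescence by factors such as KLF2 and FOXO1, and in the resting state they respond to IL-7 and to interferons from other cells.

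The 10 libraries held between 13987029 and 22859516 counts. Levels are given as counts scaled to a common library size (CPM) on a scale shared by those 30 libraries. Values for single libraries are listed in the order AR16, AR17, AR18, AR19 and AR20 at 2 h and AR6, AR7, AR8, AR9 and AR10 at 0 h. Means stand with ± SD over 5 libraries and log2 differences with ± SE. Time was the main axis of variation: over the 500 most variable genes the leading component held 74.2% of the variance and the next 13.3%. AR18 and AR8 stood apart from their groups. The distance of a library was its log2 level minus the mean of the other 4 libraries of its group. Among 9705 genes of at least 4 CPM, AR18 lay 2 log2 units or more from that mean at 85 genes and AR8 at 86. The other 8 libraries did so at 3 to 23 genes. Of 61 such genes that were higher in AR18 and 61 that were higher in AR8, 43 were shared, which is 70.5% of each. Mmp14, a membrane-bound matrix protease, led them with 166 CPM in AR18, against 0.666 to 6.27 CPM in the other 2 h libraries, and 141 CPM in AR8, against 0.874 to 5.44 CPM in the other 0 h libraries. Each result below was therefore also computed without AR8 and AR18.

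Sh2b3 itself still gave reads in the knockout. It had 20.98, 19.4, 30.04, 23.1 and 13.6 CPM at 2 h, against 14.5, 16.2, 13.7, 14.8 and 15.998 CPM at 0 h. AR20 lay below the 0 h libraries and the other 4 libraries at 2 h lay above them. The difference was 0.52 ± 0.17 log2 units (SE, edgeR adjusted p = 0.0150), and 0.34 without AR8 and AR18 (adjusted p = 0.0626), where it no longer passed. The counts cover the whole gene, so they do not show whether the transcript includes the deleted part. In wild-type cells the gene had 146 ± 10.5 CPM at 2 h and 72.4 ± 5.47 CPM at 0 h (SD, n = 5 each).

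In the knockout 12797 genes had enough reads to be tested. At 2 h 3829 of them were higher (29.9%) and 3922 lower (30.6%), together 7751 (60.6%), at an edgeR adjusted p under 0.05. Of the calls, 1165 were higher and 1739 lower by 2-fold or more, 330 and 461 by 4-fold or more, and 59 and 30 by 16-fold or more. The median log2 difference over all genes tested was −0.04. The 2 h and 0 h libraries did not overlap at 5846 genes (45.7%). Without AR8 and AR18, 3906 of 12880 genes were higher (30.3%) and 3958 lower (30.7%). Of the genes called, 7292 were called in the same direction in both fits and 0 in opposite directions, 459 were called only with the pair of libraries and 519 only without it. With this background a call by itself separates a gene little from the rest, so sizes and the libraries' own values are given throughout. Protein-coding genes were higher and lower about equally often (32.9% and 31.7% of 10884), whereas among 923 long non-coding RNAs 15.4% were higher and 27.7% lower, with a median of −0.24.

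The largest rises included those of the chemokine gene Xcl1 and the orphan nuclear receptor gene Nr4a3, both described below. Ramp3, a partner of calcitonin-family receptors, averaged 278 ± 110.0 CPM at 2 h and 3.90 ± 4.64 CPM at 0 h (SD, n = 5 each), 6.08 ± 0.71 log2 units (edgeR adjusted p = 8.4e-05) and 7.21 without AR8. Mir155hg, the host transcript of the microRNA miR-155, which is known to promote T cell responses, had 22.6 ± 7.12 CPM at 2 h and 0.410 ± 0.419 CPM at 0 h (5.86, and 6.57 without AR9). The other large rises included the semaphorin Sema7a (5.82), which came to 4.85 without AR18 and 7.05 without AR8. The exchange factor gene Rasgef1b (5.44), the sulfotransferase gene Chst2 (5.28) and Mpzl1, a cell surface glycoprotein gene (5.28, 6.20 without AR8), were of the same rank. At each of these genes every 2 h library lay above every 0 h library.

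The largest falls were of another kind, with several interferon-induced genes and stress genes among them. Phf11a, which has close paralogs whose reads may be split or shared, had 0.388, 0.366, 0.122, 0.362 and 0.318 CPM at 2 h, against 13.6, 5.82, 9.32, 10.2 and 10.4 CPM at 0 h, a difference of −4.94 ± 0.32 (adjusted p = 1.4e-08). Zfp683, the gene of HOBIT, a repressor known from tissue-resident T cells and NKT cells, averaged 0.413 ± 0.187 CPM at 2 h and 12.4 ± 5.17 CPM at 0 h (−4.87 ± 0.46), and AR10 was the lowest of the 0 h libraries at 3.31 CPM. Slfn5, an interferon-inducible member of the schlafen family, had 12.9 ± 4.32 CPM at 2 h and 263 ± 41.7 CPM at 0 h (−4.33 ± 0.22, adjusted p = 3.5e-08). The 2 h and 0 h libraries were far apart at all 3 genes. Slc16a5, of the monocarboxylate transporter family, had a difference of −4.39, and Tet1, the gene of a DNA demethylase, of −3.99. Ampd1, which encodes an AMP deaminase, had a difference of −4.05, the adhesion receptor gene Adgrb2 of −4.06, and Afp, best known as a fetal serum protein gene, of −4.21. Ifitm10 had −4.52, and −5.16 without AR18.

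**Figure D1:**
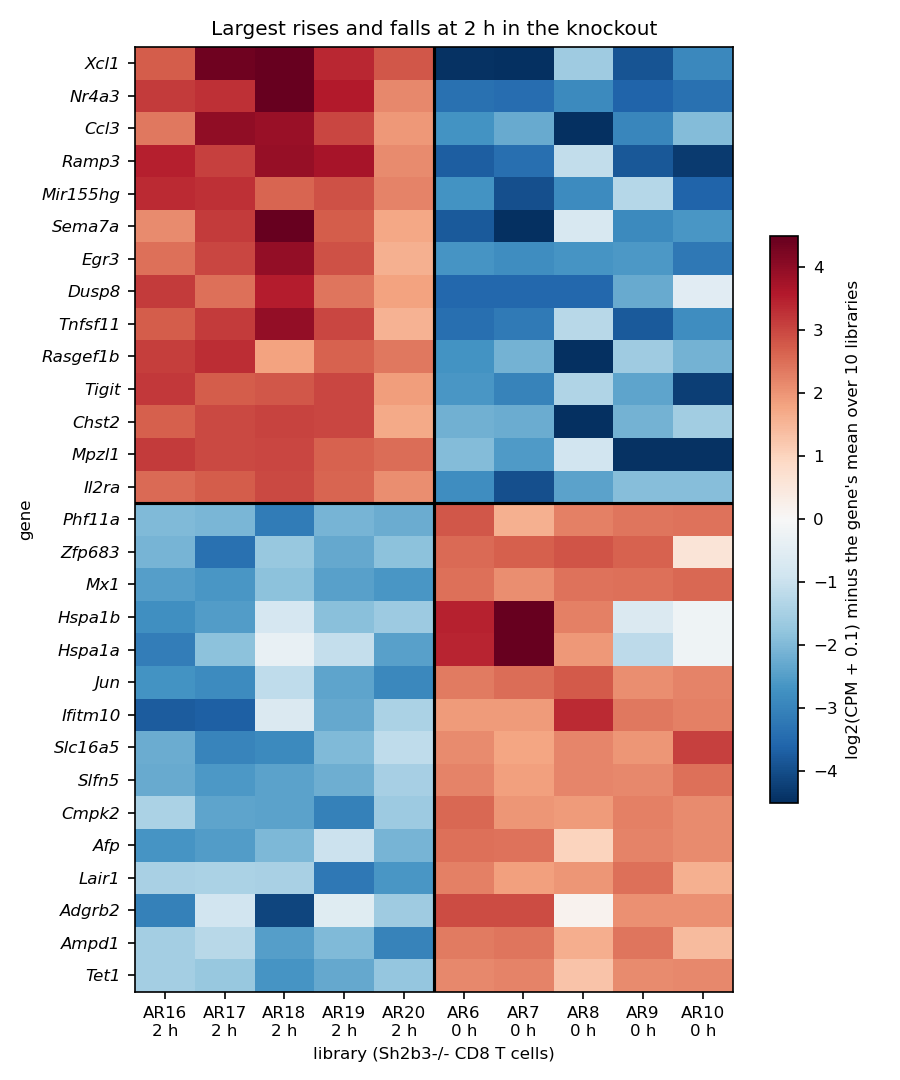
Heat map of 14 of the 15 largest rises (upper block) and the 15 largest falls (lower block) at 2 h among genes called with and without AR8 and AR18, one column per knockout library, 2 h on the left and 0 h on the right. Colour is log2(CPM + 0.1) minus the gene's mean over the 10 libraries, limited to 4.5 log2 units either way; AR20 is the palest 2 h column at most of the risen genes, and Hspa1a and Hspa1b are high mainly in AR6 and AR7.

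Immediate early transcription factors changed in both directions. Of 25 tested, 15 rose, 6 fell and 4 did not pass, against 29.9% and 30.6% of all genes, and their median was 2.04 log2 units (1.98 without AR8 and AR18). The NR4A and EGR families, often used as readouts of antigen receptor signal strength, rose. Nr4a3 had 978, 1079, 2463, 1329.8 and 497 CPM at 2 h, against 10.6, 10.4, 15.1, 9.05 and 10.8 CPM at 0 h, a 113-fold ratio of means and 6.82 ± 0.48 log2 units (edgeR adjusted p = 2.5e-06, 6.59 without AR8 and AR18). Egr2 had 196, 268, 425, 228 and 101.3 CPM at 2 h, against 6.94, 9.47, 4.98, 6.29 and 7.13 CPM at 0 h (5.13 ± 0.41, adjusted p = 4.8e-06). AR18 was highest and AR20 lowest of the 2 h libraries at both genes, and the 2 h and 0 h libraries did not overlap. Egr3 had a difference of 5.76 ± 0.46, Egr1 of 2.32 ± 0.34, Nr4a2 of 4.16 ± 0.37 and Nr4a1 of 3.25 ± 0.46. The same order of AR18 above and AR20 below held at these 4 genes.

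Other factors of the list rose as well. Irf4, which scales the effector response with signal strength, averaged 517 ± 165 CPM at 2 h and 21.3 ± 10.9 CPM at 0 h (SD, n = 5 each, 4.61 ± 0.43, adjusted p = 1.7e-05). Crem, the gene of a cyclic AMP responsive modulator, had 168 ± 45.0 CPM at 2 h and 8.88 ± 1.08 CPM at 0 h (4.25 ± 0.19), and the stress-responsive Atf3 had 34.6 ± 29.8 CPM at 2 h and 1.10 ± 0.992 CPM at 0 h (4.88 ± 0.76, 4.22 without AR18 and 5.48 without AR8). Fosl2, of the FOS family, had 841 ± 295 CPM at 2 h and 58.3 ± 8.40 CPM at 0 h (3.86 ± 0.26), Bhlhe40 a difference of 2.72 ± 0.35 and Irf8 of 2.04 ± 0.31. Batf, a partner of IRF4, had 22.2 ± 4.43 CPM at 2 h and 19.9 ± 3.44 CPM at 0 h and did not pass (0.17, adjusted p = 0.361). Klf10 passed with 0.31 ± 0.13 (adjusted p = 0.0420), but not without any single one of 7 of the 10 libraries, where its adjusted p reached 0.124 and its difference 0.21 (without AR18), nor without AR8 and AR18 (0.20, adjusted p = 0.169).

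Jun, Junb, Jund, Fos and Fosb, which encode AP-1 factors, fell. Jun had 34.02, 30.3, 98.3, 41.8 and 29.3 CPM at 2 h, against 1099, 1257, 1492, 929 and 1028 CPM at 0 h, a 24.8-fold ratio downward and −4.63 ± 0.40 log2 units (edgeR adjusted p = 8.7e-06). Fos had 88.5, 94.1, 210.0, 108 and 42.3 CPM at 2 h, against 1145, 1403, 1401, 1022 and 898 CPM at 0 h (−3.43 ± 0.40, adjusted p = 7.2e-05). At both genes AR18 was the highest of the 2 h libraries and still lay far below every 0 h library. Fosb differed by −2.63 ± 0.48, Junb by −2.49 ± 0.19, Jund by −1.83 ± 0.09 and Ier2, a short-lived immediate early gene, by −0.44 ± 0.14. The AP-1 genes that fell were thus at their higher level in cells taken at 0 h. Whether handling of those cells during isolation plays a part was not tested. The heat shock genes Hspa1b and Hspa1a were spread unevenly at 0 h. Hspa1b had 2.72, 3.17, 11.1, 5.06 and 5.94 CPM at 2 h, against 206, 472, 91.2, 12.01 and 16.3 CPM at 0 h (−4.83 ± 1.15, adjusted p = 0.0061, and −3.85 without AR7). Its near-identical copy Hspa1a, with which reads may be exchanged, had 0.499, 1.34, 4.01, 2.35 and 0.849 CPM at 2 h, against 54.9, 144, 19.8, 2.19 and 4.40 CPM at 0 h (−4.65 ± 1.26, and −3.49 without AR7). By limma with voom quality weights neither passed (adjusted p = 0.114 for Hspa1b and 0.201 for Hspa1a). AR7 and AR6 carried the highest values of both genes. Of 14 tested chaperone and stress genes, 3 rose (21.4%) and 4 fell (28.6%), against 29.9% and 30.6% of all genes, with a median of 0.09.

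The genes that feed back on MAP kinases also split. Of 15 tested, 7 rose (46.7%) and 3 fell (20%), against 29.9% and 30.6% of all genes. Their median was 0.46 (0.39 without AR8 and AR18). Dusp8, a phosphatase gene for stress kinases, had 10.2, 6.29, 13.2, 6.09 and 3.98 CPM at 2 h, against 0, 0, 0, 0.141 and 0.721 CPM at 0 h (5.75 ± 0.85, and 7.91 without AR10). Spry1 and Spry2, which encode inhibitors of receptor signalling to RAS, differed by 4.16 ± 0.49 and 4.95 ± 0.59 (5.73 without AR10 for Spry2), and Dusp16 by 3.32 ± 0.14. Dusp1, an immediate early phosphatase gene of JNK and p38, had 65.0, 57.0, 68.0, 55.7 and 47.5 CPM at 2 h, against 449, 429, 452, 419 and 498 CPM at 0 h (−2.93 ± 0.10, adjusted p = 4.2e-11). Neither group showed a library near the other at Dusp1. Dusp6, a phosphatase gene for ERK, differed by −1.23 ± 0.25 and Dusp7 by −0.97 ± 0.10.

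NF-kB genes rose almost together. Of 16 tested subunits, inhibitors and deubiquitinases, 14 rose (29.9% of all genes did), 1 fell and 1 did not pass, with a median of 1.30 (1.30 without AR8 and AR18). The subunit gene Nfkb2 had 544, 542, 644, 574 and 485 CPM at 2 h, against 86.0, 77.4, 130.2, 80.8 and 75.9 CPM at 0 h (2.64 ± 0.15, edgeR adjusted p = 1.6e-08). Rel, the subunit gene most tied to T cell activation, had 360.0, 336, 593, 349 and 233 CPM at 2 h, against 59.9, 64.7, 56.3, 78.7 and 71.4 CPM at 0 h (2.51 ± 0.22, adjusted p = 3.9e-06). The groups were well apart at both genes. Relb differed by 2.31 ± 0.14, Nfkb1 by 1.95 ± 0.13 and Rela by 1.12 ± 0.09. Among the inhibitors, Nfkbid differed by 1.79 ± 0.21 and Nfkbie by 1.27 ± 0.10, whereas Nfkbia, the gene of IkB alpha and the best known NF-kB target, averaged 622 ± 46.0 CPM at 2 h and 482 ± 60.2 CPM at 0 h (0.38 ± 0.09, adjusted p = 0.0015) and its groups overlapped. The signalling adaptor gene Traf1 differed by 1.30 ± 0.08. The deubiquitinase gene Tnfaip3, which ends NF-kB signalling, was the member that fell (−0.51 ± 0.16, adjusted p = 0.0175), and Nfkbiz passed only without AR8 and AR18 (−0.31, adjusted p = 0.0439, against −0.24 and 0.0773 with all 10 libraries).

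The start-site windows of these genes were read from RefSeq on GRCm38.p6, as 300 bases from 250 before to 50 after each start, and searched on both strands for the NF-kB site. It was found in 4.51% of all 32851 windows and in at least 1 window of 6.16% of the 9145 tested genes that had one. Of the 13 NF-kB list members with a window, 9 held it, and so did 26 of the 233 genes with a window that rose by 4-fold or more (11.2%) and 15 of the 299 with a window that fell as much (5.02%). Stretches of 150 bases are shown for Rel and Nfkbia, which changed by different amounts, and for Il2ra, which is not of the list and rose more. Capitals mark the matches, which overlap in Rel and in Il2ra.
Rel (chr11:23770970-23771119, minus strand): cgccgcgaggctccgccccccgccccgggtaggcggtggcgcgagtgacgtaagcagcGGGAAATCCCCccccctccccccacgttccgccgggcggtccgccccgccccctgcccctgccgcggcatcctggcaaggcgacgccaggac
Nfkbia (chr12:55492648-55492797, minus strand): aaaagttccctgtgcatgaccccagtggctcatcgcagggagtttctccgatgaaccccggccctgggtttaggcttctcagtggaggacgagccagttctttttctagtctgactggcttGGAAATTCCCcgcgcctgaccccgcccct
Il2ra (chr2:11642562-11642711, plus strand): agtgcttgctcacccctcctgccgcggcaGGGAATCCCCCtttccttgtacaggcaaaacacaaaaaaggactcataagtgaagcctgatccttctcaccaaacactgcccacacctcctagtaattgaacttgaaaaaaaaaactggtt
Egr2, described above, is shown from the immediate early genes, with its CArG box in capitals. This element is bound by serum response factor and was present in 1.63% of all windows and in 1.51% of the tested genes with a window. Of the 17 immediate early members with a window only 1, Egr2, held it, so it does not mark the list. Among genes with a window it was in 2.15% of those that rose by 4-fold or more and in 2.01% of those that fell as much. A match describes letters in the window and says nothing of binding.
Egr2 (chr10:67537416-67537565, plus strand): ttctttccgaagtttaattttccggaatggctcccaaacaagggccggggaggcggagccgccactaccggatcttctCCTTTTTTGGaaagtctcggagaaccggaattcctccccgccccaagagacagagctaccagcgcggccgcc

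Cytokine and chemokine genes held several of the largest rises. Of 25 listed, 15 had enough reads to be tested, and a gene near 0 before stimulation could be tested only through its level at 2 h. Of these 10 were higher (66.7%), 1 was lower (6.67%) and 4 did not pass, against 29.9% higher and 30.6% lower over all genes. Xcl1, a chemokine that attracts cross-presenting dendritic cells, had 37.3, 117, 153.4, 58.3 and 38.7 CPM at 2 h, against 0.154, 0.0462, 1.75, 0.283 and 0.649 CPM at 0 h (7.07 ± 0.78, edgeR adjusted p = 5.4e-05, and 8.31 without AR8). Ccl3 differed by 6.23 ± 0.68 and Ccl4 by 4.83 ± 0.40, both inflammatory chemokines. Il2, the T cell growth factor gene, was read in every library at 2 h and by 1 read in all at 0 h, a ratio of 145 between the reads pooled over each group per pooled library size, with an exact 95% interval of 25.6 to 5777 for counting error. In CPM that was 0.888, 1.28, 3.16, 1.69 and 1.11 at 2 h, so the level was low in each library even where it was highest, in AR18.

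TNF-family members rose as well. Tnfsf11, the gene of RANK ligand, had 85.3 ± 46.5 CPM at 2 h and 1.63 ± 1.49 CPM at 0 h (5.65 ± 0.64, and 6.46 without AR8). Tnfsf14, the gene of LIGHT, had 63.7 ± 74.3 CPM at 2 h and 3.84 ± 1.93 CPM at 0 h (4.02 ± 0.81), with 195 CPM in AR18, without which the difference was 3.01. Tnf had 44.4, 78.6, 291, 69.6 and 34.2 CPM at 2 h, against 18.8, 19.4, 40.7, 13.6 and 13.98 CPM at 0 h, a difference of 2.27 ± 0.67 (adjusted p = 0.0168), which came to 1.42 without AR18 and 1.79 without AR8 and AR18. At Tnf the lowest 2 h library lay below AR8, the highest at 0 h. Lta differed by 1.76 ± 0.41 and the IL-6 family cytokine gene Lif by 2.89 ± 0.45.

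Ifng, the gene of interferon gamma, went the other way. It had 0.721, 0.794, 3.89, 0.301 and 1.06 CPM at 2 h, against 5.40, 3.84, 11.4, 2.90 and 0.937 CPM at 0 h, and the groups overlapped. The difference was −1.86 ± 0.73 (adjusted p = 0.0461) and passed in 2 of the 10 fits that leave out a library. It was −1.27 without AR8 (adjusted p = 0.116), −2.74 without AR18 (adjusted p = 0.0029) and −2.16 without both (adjusted p = 0.0012). Ccl5, a chemokine gene of memory cells, did not pass (15.5 ± 11.7 CPM at 2 h and 13.5 ± 13.5 CPM at 0 h, adjusted p = 0.812).

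Most tested receptors of activated T cells rose. Of 16 tested, 11 rose and 2 fell, against 29.9% and 30.6% of all genes, with a median of 1.51. Il2ra, the high-affinity IL-2 receptor chain, had 63.4, 71.1, 84.7, 66.6 and 46.0 CPM at 2 h, against 1.44, 0.601, 1.94, 2.76 and 2.74 CPM at 0 h, a 35.03-fold ratio of means and 5.19 ± 0.32 log2 units (adjusted p = 1.6e-07, 5.14 without AR8 and AR18). Its stretch with NF-kB matches is printed above. Every 2 h library was far above the 0 h libraries, and AR20 was the lowest of them. Cd83 differed by 4.91 ± 0.33, and Tnfrsf9, the gene of the costimulatory receptor 4-1BB, by 4.30 ± 0.47. Slamf1 differed by 3.51 ± 0.47, Icos by 2.002 ± 0.18 and Cd28 by 1.999 ± 0.14. Cd226, an adhesion receptor that competes with TIGIT for ligand, fell (37.2 ± 6.24 CPM at 2 h and 138.2 ± 13.4 CPM at 0 h, −1.88 ± 0.11), as did Cd2 (−0.54 ± 0.08). Cd69, usually among the earliest activation markers, had 539, 555, 681, 484 and 319 CPM at 2 h, against 395, 392, 413, 506 and 527 CPM at 0 h. Its groups overlapped and it did not pass (0.22 ± 0.17, adjusted p = 0.297), but did without AR20 (0.35, adjusted p = 0.0163). Cd44 passed with 1.63 ± 0.57 (adjusted p = 0.0305) but in only 4 of 10 fits without a library. It was low in both libraries that stood apart, at 3.71 CPM in AR18 and 0.969 CPM in AR8, and without them the difference was 1.605 (adjusted p = 9.1e-05).

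Inhibitory receptors were mixed. Of 11 tested, 5 rose (45.5%) and 2 fell (18.2%), against 29.9% and 30.6% of all genes, with a median of 0.51. Tigit had 55.0, 39.4, 41.8, 48.4 and 21.9 CPM at 2 h, against 0.874, 0.647, 2.26, 1.06 and 0.216 CPM at 0 h (5.30 ± 0.44, adjusted p = 2.6e-06). Pdcd1, the gene of PD-1, had 25.1, 29.7, 79.4, 41.5 and 18.2 CPM at 2 h, against 1.95, 0.416, 4.66, 0.777 and 0.649 CPM at 0 h (4.46 ± 0.70, and 5.33 without AR8). All 5 libraries at 2 h lay above all 5 at 0 h for both. Ctla4 differed by 0.86 ± 0.19 and Vsir by 0.72 ± 0.07. Lair1, a collagen receptor, averaged 0.608 ± 0.330 CPM at 2 h and 10.8 ± 2.57 CPM at 0 h (−4.13 ± 0.35), and Cd96, which binds the same ligand as TIGIT, 94.4 ± 6.99 CPM at 2 h and 261 ± 27.2 CPM at 0 h (−1.46 ± 0.08). Cd5 passed with 0.58 ± 0.21 (adjusted p = 0.0339), in 3 of 10 fits without a library, and not without AR8 and AR18 (0.52, adjusted p = 0.145).

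**Figure D2:**
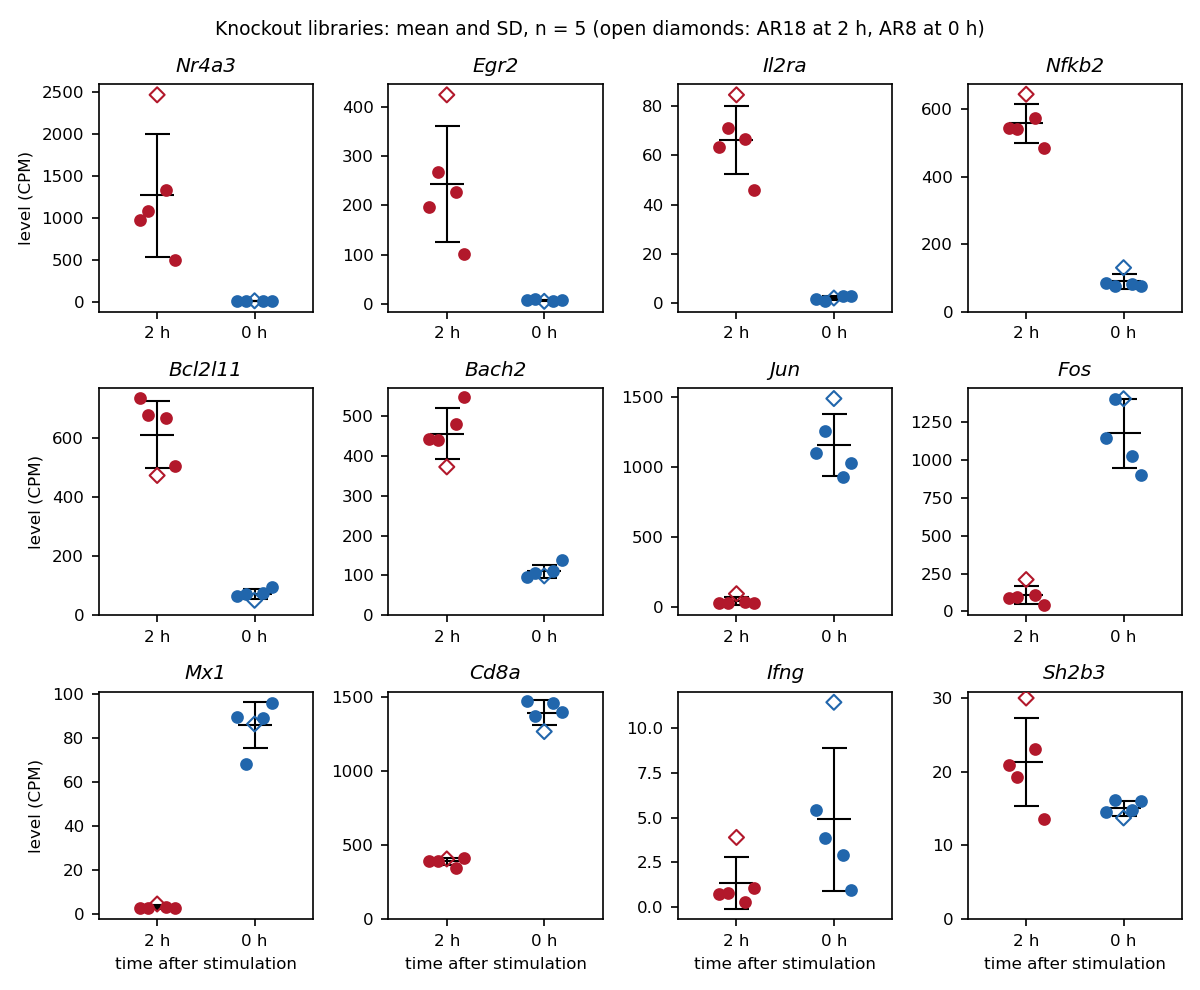
Level in CPM of 12 genes in each knockout library, 2 h on the left and 0 h on the right of each panel, with mean and SD (n = 5 each); open diamonds are AR18 at 2 h and AR8 at 0 h. The groups are apart at all genes but Ifng and Sh2b3, where points of 2 h and 0 h lie at the same heights.

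Genes of cytokine signalling, the pathway in which SH2B3 acts, were examined next. Of 27 tested receptors, JAK kinases and STAT factors, 15 rose and 9 fell, with a median of 0.38; 29.9% of all genes rose and 30.6% fell, so the share that fell is close to that of all genes. Among receptors, Il12rb2, the inducible chain of the IL-12 receptor, had 66.8, 51.0, 60.4, 84.9 and 26.7 CPM at 2 h, against 4.11, 4.30, 6.46, 4.52 and 1.23 CPM at 0 h (3.80 ± 0.41), and its constitutive partner Il12rb1 had 2.55, 2.63, 7.97, 4.10 and 1.86 CPM at 2 h, against 25.1, 19.96, 25.6, 17.1 and 19.5 CPM at 0 h (−2.49 ± 0.34). The groups did not overlap at either chain, which moved in opposite directions. Il2rb, the shared IL-2 and IL-15 receptor chain, differed by 1.27 ± 0.23, Il7r by 0.95 ± 0.16 and Ifngr1 by 2.44 ± 0.11, whereas Il6ra differed by −1.29 ± 0.10 and Il15ra by −1.27 ± 0.21. Among kinases, Jak3, the partner of the common gamma chain, averaged 130.3 ± 22.6 CPM at 2 h and 419.8 ± 93.1 CPM at 0 h (−1.68 ± 0.16, adjusted p = 2.2e-06). Among factors, Stat5b had 782, 737, 662, 772 and 755 CPM at 2 h, against 272, 277, 279, 274 and 284 CPM at 0 h (1.43 ± 0.06, adjusted p = 4.0e-10), with little spread in either group. Stat5a differed by 1.30 ± 0.07 and Stat6 by 0.86 ± 0.06.

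Of 13 tested feedback genes of cytokine receptors, 6 rose (46.2%) and 1 fell (7.69%), against 29.9% and 30.6% of all genes. Cish, a STAT5 target that restrains IL-2 and T cell receptor signalling, had 28.6, 31.7, 61.4, 21.3 and 17.8 CPM at 2 h, against 2.88, 3.19, 8.26, 1.41 and 4.40 CPM at 0 h (2.98 ± 0.49, adjusted p = 5.2e-04). AR18 and AR8 were the highest of their groups, and without them the difference was 3.08. Socs3, which blocks signalling through gp130 receptors, had 68.9, 65.6, 125, 75.2 and 78.5 CPM at 2 h, against 272, 260.4, 475, 211 and 217 CPM at 0 h (−1.79 ± 0.27, adjusted p = 2.7e-04), and again AR18 and AR8 were highest without closing the gap. The kinase gene Pim1 differed by 1.25 ± 0.11, Socs5 by 1.46 ± 0.13, Socs4 by 1.002 ± 0.08 and Socs7 by 0.95 ± 0.08. Socs1 did not pass (70.0 ± 19.6 CPM at 2 h and 62.3 ± 15.6 CPM at 0 h, adjusted p = 0.496).

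Quiescence and homing genes did not move as a block. Of 30 tested, 13 rose (43.3%), 8 fell (26.7%) and 9 did not pass, with a median of 0.18. Over all genes 29.9% rose and 30.6% fell, so the share that fell is near the background. Klf2, the quiescence factor that drives S1pr1, had 707, 709, 786, 720.0 and 1008 CPM at 2 h, against 1298, 1443, 1789, 1177 and 1324 CPM at 0 h (−0.83 ± 0.13, adjusted p = 8.2e-05). AR20 was the highest 2 h library and still below all 0 h libraries. Foxo1 had 256 ± 5.81 CPM at 2 h and 424 ± 45.1 CPM at 0 h (−0.72 ± 0.07), whereas S1pr1 did not pass (0.01, adjusted p = 0.961). Txnip, an inhibitor of glucose uptake, differed by −0.66 ± 0.09, and Tcf7 by −0.26 ± 0.09 (adjusted p = 0.0211, and 0.0544 without AR19). In the opposite direction, Bach2, a repressor that keeps T cells from effector fates, had 441, 439, 372, 479 and 546 CPM at 2 h, against 95.6, 106, 98.9, 111 and 139 CPM at 0 h (2.06 ± 0.12, adjusted p = 8.8e-09). AR20 was the highest library for it too. The ubiquitin ligase gene Cblb differed by 1.56 ± 0.14, the lymph node homing receptor gene Ccr7 by 1.22 ± 0.15 and the chromatin organiser gene Satb1 by 0.89 ± 0.08.

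Genes of the T cell receptor machinery fell more often than they rose, 14 (43.8%) against 8 (25%) of 32 tested. Over all genes 30.6% fell and 29.9% rose. The median of the list was −0.28 (−0.30 without AR8 and AR18). Cd8a had 389.9, 393, 405, 346 and 409 CPM at 2 h, against 1472, 1372, 1264, 1457 and 1395 CPM at 0 h, a 3.58-fold ratio downward (−1.83 ± 0.07, edgeR adjusted p = 1.2e-10). Its partner Cd8b1 had 339, 355, 284, 307 and 431 CPM at 2 h, against 1426, 1311, 1081, 1349 and 1348 CPM at 0 h (−1.91 ± 0.11). Both coreceptor genes were lower in all 5 libraries at 2 h. Cd3g differed by −1.33 ± 0.08, Cd3d by −0.70 ± 0.07, Cd3e by −0.68 ± 0.07 and the kinase gene Lck by −0.73 ± 0.08. The adaptor gene Themis differed by −1.31 ± 0.07 and Prkcq by −1.09 ± 0.06. Zap70 had 363 ± 78.1 CPM at 2 h and 375 ± 38.2 CPM at 0 h and did not pass. Ptpn22, a phosphatase gene that restrains the receptor, rose (1.38 ± 0.10), as did the calcium-responsive Nfatc1 (1.02 ± 0.21). These genes also serve as the check of the labelled cell type: the summed level of the 8 CD8 T cell markers was 2780.1 to 3414 CPM at 2 h and 5923 to 6312 CPM at 0 h. In bulk RNA, fewer cells of a type and less RNA per cell cannot be told apart.

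**Figure D3:**
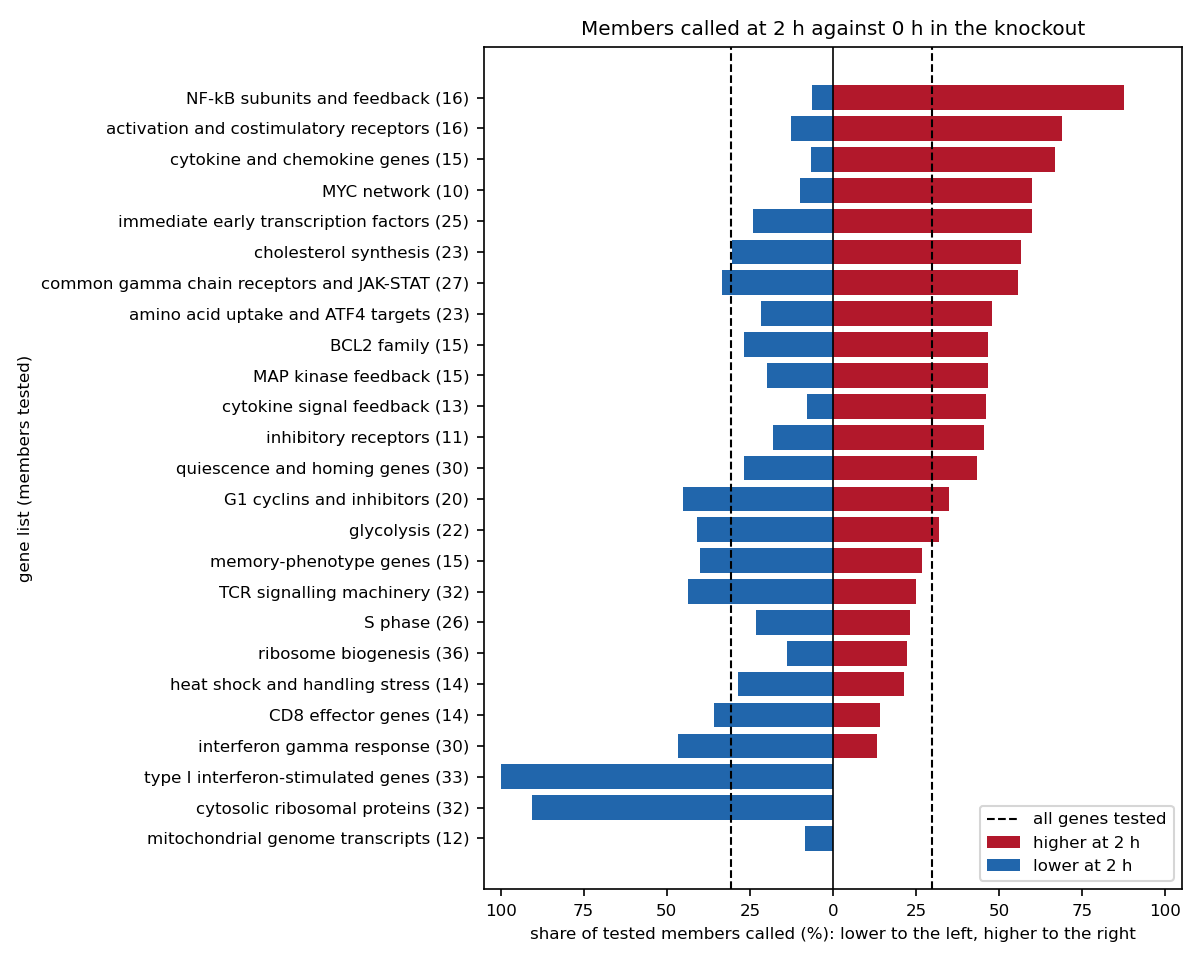
Share of tested members called higher (right) and lower (left) at 2 h in the knockout for lists with at least 10 tested members, which are given in brackets; dashed lines are the shares over all genes tested, 29.9% and 30.6%. NF-kB genes have the longest bar to the right, with 14 of 16 higher, and type I interferon-stimulated genes the longest to the left, with 33 of 33 lower.

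Type I interferon-stimulated genes fell throughout. Of 34 listed, 33 were tested and 33 were lower, against 30.6% of all genes, with 0 higher. Their median was −2.16 log2 units, and −2.17 without AR8 and AR18, against −0.04 over all genes. These antiviral genes are held on by tonic interferon and STAT signalling. Mx1, a GTPase that blocks influenza viruses where the allele is intact, had 2.77, 2.503, 4.38, 2.83 and 2.49 CPM at 2 h, against 89.6, 68.4, 86.4, 89.3 and 96.0 CPM at 0 h, a 28.7-fold ratio downward (−4.83 ± 0.15, edgeR adjusted p = 3.3e-11). Cmpk2, a mitochondrial nucleotide kinase gene, had 4.72, 2.38, 2.31, 1.45 and 3.98 CPM at 2 h, against 76.5, 49.96, 48.2, 61.4 and 55.8 CPM at 0 h (−4.27 ± 0.27). Its neighbour Rsad2, the gene of viperin, had 2.94, 3.05, 1.46, 2.29 and 6.68 CPM at 2 h, against 64.4, 43.3, 40.7, 49.8 and 67.7 CPM at 0 h (−3.99 ± 0.36). No library of either group came near the other at these 3 genes.

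The same held across the roles within this group. Among effectors, Oas2, which senses double-stranded RNA, differed by −3.40 ± 0.35, Oas3 by −2.96 ± 0.11, Ifit1 by −3.05 ± 0.20, Ifit3 by −3.11 ± 0.14 and the ubiquitin-like modifier gene Isg15 by −2.48 ± 0.26. Among sensors, Zbp1 differed by −2.95 ± 0.14 and Dhx58 by −2.74 ± 0.12. The brake on the receptor, Usp18, averaged 7.52 ± 3.22 CPM at 2 h and 70.1 ± 20.8 CPM at 0 h (−3.21 ± 0.31). The factors that transcribe these genes changed less, with −1.89 ± 0.11 for Irf7 and −0.52 ± 0.07 for Irf9. The smallest difference of the list was that of Parp14 (−0.47 ± 0.11, adjusted p = 0.0022), whose groups overlapped.

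Start-site windows of this list were searched for the interferon-stimulated response element, written as a GAAA, any 2 bases (NN) and a further GAAA, on both strands. The element was present in 3.44% of all windows and in at least 1 window of 3.74% of the 9145 tested genes that had one. It was in 12 of the 22 list members that had a window. It was also in 27 of the 299 genes with a window that fell by 4-fold or more (9.03%) and in 9 of the 233 with a window that rose as much (3.86%). The AP-1 site, also searched, was in 7 of those 22 members and in 5.78% of the tested genes with a window. Capitals mark the response element in 150 bases before the start of 3 members. In Isg15 its 3 matches overlap.
Rsad2 (chr12:26456453-26456602, minus strand): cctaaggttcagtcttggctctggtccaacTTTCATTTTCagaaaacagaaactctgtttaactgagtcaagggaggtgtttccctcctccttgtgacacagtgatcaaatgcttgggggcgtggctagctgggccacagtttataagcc
Ifit1 (chr19:34640739-34640888, plus strand): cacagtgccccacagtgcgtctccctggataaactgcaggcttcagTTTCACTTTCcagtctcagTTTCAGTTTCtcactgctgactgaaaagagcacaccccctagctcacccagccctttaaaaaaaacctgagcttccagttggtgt
Isg15 (chr4:156200819-156200968, minus strand): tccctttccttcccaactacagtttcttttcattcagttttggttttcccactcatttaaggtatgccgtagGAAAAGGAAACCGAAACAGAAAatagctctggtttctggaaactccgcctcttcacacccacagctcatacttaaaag
The window of Cmpk2 held no match, which says only that these letters are not in it.

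Genes induced by interferon gamma fell less evenly. Of 30 tested, 14 were lower (46.7%) and 4 higher (13.3%), against 30.6% and 29.9% of all genes, with a median of −0.34. The guanylate-binding protein genes Gbp10 and Gbp6, close copies whose reads may be exchanged, differed by −2.31 ± 0.15 and −1.66 ± 0.12, Gbp8 by −1.44 ± 0.10 and the immunoproteasome gene Psmb9 by −1.14 ± 0.10. Cd274, the gene of PD-L1, averaged 117 ± 49.6 CPM at 2 h and 52.8 ± 10.4 CPM at 0 h (1.15 ± 0.28), so a member of the same list rose. Irgm1 was not called with all libraries (−0.42 ± 0.22, adjusted p = 0.126) and was called without AR8 and AR18 (−0.70, adjusted p = 8.0e-06).

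Of 14 tested effector genes, 2, Tbx21 and the transcription factor gene Zeb2 (2.51 ± 0.59), rose and 5 fell, and of 15 memory-phenotype genes 4 rose and 6 fell. Over all genes 29.9% rose and 30.6% fell, so apart from the few effector genes that rose these shares are near the background. Tbx21, the gene of T-bet, had 20.9, 15.7, 149, 21.5 and 12.6 CPM at 2 h, against 7.25, 7.30, 19.9, 4.59 and 3.03 CPM at 0 h. AR18 was far above the rest, and AR17 and AR20 lay below AR8, the highest at 0 h. The difference was 2.36 ± 0.88 (adjusted p = 0.0450), passed in 3 of 10 fits without a library, came to 1.07 without AR18 (adjusted p = 0.0951) and 2.97 without AR8, and was 1.67 without both (adjusted p = 6.9e-05). Nkg7, a cytotoxic granule protein gene, had 32.8 ± 12.5 CPM at 2 h and 332 ± 46.6 CPM at 0 h (−3.33 ± 0.23, adjusted p = 7.0e-07), and the surface protein genes Ly6c1 and Ly6c2, close copies of each other, differed by −3.35 ± 0.28 and −2.92 ± 0.38. The transcriptional regulator gene Id2 differed by −1.90 ± 0.33. Eomes differed by −0.995 ± 0.34 (adjusted p = 0.0286), passed in 5 of 10 fits without a library and not without AR8 and AR18 (−1.02, adjusted p = 0.0743). Gzmb, the gene of granzyme B, was low in both groups (0.808 ± 0.605 CPM at 2 h and 0.768 ± 0.422 CPM at 0 h) and did not pass, and neither did the perforin gene Prf1 (45.4 ± 25.7 CPM at 2 h and 61.6 ± 11.6 CPM at 0 h, adjusted p = 0.284), which was called without AR8 and AR18 (−0.70, adjusted p = 0.0015).

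Growth genes changed unevenly. Myc had 459.9, 518, 666, 483 and 193 CPM at 2 h, against 233, 235, 243, 244 and 220.3 CPM at 0 h (0.99 ± 0.26, adjusted p = 0.0085). In AR20 it lay below the 0 h libraries, which spanned a narrow range, and in the other 4 it was well above them. In the network around MYC, 6 of 10 tested members rose and 1, Mlx, fell (−0.47 ± 0.09), and repressor genes were among those that rose, with 2.34 ± 0.16 for Mxi1, 1.56 ± 0.10 for Mxd1, 1.03 ± 0.11 for Mxd4 and 0.90 ± 0.08 for Mnt. Of 36 genes that build ribosomes, 8 rose and 5 fell, fewer in each direction than the 29.9% and 30.6% of all genes, with a median of 0.08. Without AR8 and AR18 7 rose and 9 fell, with a median of −0.06, of the opposite sign. The nucleolin gene Ncl differed by 0.61 ± 0.10 and Nop16 by 0.86 ± 0.15, whereas Ubtf, a factor of RNA polymerase I, differed by −1.50 ± 0.08. The genes of ribosomal proteins themselves fell slightly, 29 of 32, with a median of −0.26. Rpl3, a protein of the large subunit, had 1902 ± 122 CPM at 2 h and 2612 ± 193 CPM at 0 h (−0.45 ± 0.07).

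In metabolism, cholesterol synthesis genes rose in 13 of 23 cases (56.5%) and fell in 7 (30.4%), with a median of 0.50. Over all genes 29.9% rose and 30.6% fell, so the share of this list that fell is that of the background. Cyp51, which removes a methyl group from lanosterol, had 54.5 ± 24.4 CPM at 2 h and 11.5 ± 3.59 CPM at 0 h (2.24 ± 0.32), and the synthase gene Hmgcs1 85.6 ± 16.99 CPM at 2 h and 31.7 ± 1.68 CPM at 0 h (1.44 ± 0.11). Nsdhl and Mvd, enzymes of the same route, differed by −1.13 ± 0.16 and −0.93 ± 0.14. Of 22 glycolysis genes, 7 rose (31.8%, near the 29.9% of all genes) and 9 fell (40.9%). Hk2, the inducible hexokinase gene, had 13.001 ± 5.77 CPM at 2 h and 2.03 ± 1.07 CPM at 0 h (2.67 ± 0.44) and the lactate exporter gene Slc16a3 differed by 2.45 ± 0.38, whereas Eno1 differed by −1.43 ± 0.07 and Pfkm by −1.70 ± 0.18. The glucose transporter gene Slc2a1 did not pass (0.05, adjusted p = 0.672). Of 23 amino acid and ATF4 target genes, 11 rose (47.8%) and 5 fell (21.7%). Those that rose included the transporter pair Slc7a5 (1.001 ± 0.18) and Slc3a2 (0.90 ± 0.11). Those that fell included Phgdh, which starts serine synthesis (−1.23 ± 0.07), and Ddit4, an inhibitor of mTORC1 (−1.89 ± 0.46).

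Cell cycle genes showed no common direction. Of 20 G1 genes, 7 rose (35%) and 9 fell (45%), and of 26 S phase genes 6 rose and 6 fell (23.1% each). Over all genes 29.9% rose and 30.6% fell. The G1 median was 0.002 with all libraries and −0.22 without AR8 and AR18, where 6 rose and 8 fell. Cdkn1a, the gene of the inhibitor p21, had 13.4, 29.98, 74.7, 16.2 and 6.63 CPM at 2 h, against 1.70, 0.970, 5.90, 2.12 and 0.721 CPM at 0 h (3.59 ± 0.83), and 2.85 without AR18 and 4.36 without AR8. The resting-cell cyclin gene Ccnd3 differed by −1.25 ± 0.09, Ccne1 by −1.48 ± 0.26 and E2f2 by −2.25 ± 0.39.

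Survival genes of the BCL2 family changed on both sides of the balance. Of 15 tested, 7 rose (46.7%) and 4 fell (26.7%), with a median of 0.31. Over all genes 29.9% rose and 30.6% fell, so the share of the family that fell is near the background. Bcl2l11, the gene of the killer BIM, had 733, 676, 472, 665 and 505 CPM at 2 h, against 66.0, 72.2, 50.8, 77.0 and 94.3 CPM at 0 h (3.10 ± 0.18, edgeR adjusted p = 6.9e-08), and AR18 was the lowest of the 2 h libraries. The protective Bcl2a1d averaged 12.5 ± 5.02 CPM at 2 h and 0.555 ± 0.317 CPM at 0 h (4.51 ± 0.41); near-identical copies such as Bcl2a1b (3.56 ± 0.42) may share its reads. Bcl2l1, the gene of BCL-XL, differed by 1.02 ± 0.15 and Mcl1 by 0.31 ± 0.07, while Bcl2 averaged 59.998 ± 5.32 CPM at 2 h and 131.95 ± 16.01 CPM at 0 h (−1.13 ± 0.09).

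Markers of other cells the isolate could hold are given as sums over all listed members in the table, tested or not. The 10 B cell markers, 9 of them tested, summed to 8.08 to 13.2 CPM at 2 h and 28.1 to 46.9 CPM at 0 h, with 3 lower, of which Cd79b differed by −2.33 ± 0.23. The 2 NK cell markers tested, Itga2 and Gzma, were both lower (−2.39 ± 0.36 and −2.07 ± 0.42), and Ncr1, a defining NK marker, was at 0 in all 5 libraries at 2 h and in 3 of 5 at 0 h. The 10 macrophage markers, 4 of them tested, summed to 91.5 to 116 CPM at 2 h and 135.96 to 177 CPM at 0 h, and the 10 dendritic cell and MHC class II markers, 7 of them tested, to 32.3 to 47.6 CPM at 2 h and 17.2 to 65.4 CPM at 0 h. No neutrophil marker of 10 had enough reads to be tested. Markers of gamma delta T cells, of which 6 of 7 were tested, summed to 139.9 to 519.5 CPM at 2 h and 286 to 995 CPM at 0 h, and 4 were lower, or 6 without AR8 and AR18. The highest sums were those of AR18 and AR8. Cd163l1, a scavenger receptor gene of gamma delta cells, had 15.98, 16.4, 129, 17.5 and 10.1 CPM at 2 h, against 38.1, 31.6, 282, 29.5 and 21.04 CPM at 0 h, a difference of −1.10 that did not pass (adjusted p = 0.391) and passed without AR8 and AR18 (−0.99, adjusted p = 4.1e-04). Of 3 tested CD4 and regulatory T cell markers 1 rose and 1 fell, and none of 5 erythroid markers or of 1 platelet marker passed. The erythroid sums ran over 8.05 to 77.9 CPM at 2 h and 12.3 to 105.3 CPM at 0 h, with AR20 and AR10 highest, and their part in the lower values of AR20 was not tested. Of 12 transcripts of the mitochondrial genome, 1 was lower and none higher. The part of the gamma delta markers in the results at which AR8 and AR18 stood apart was not tested.

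Leaving out AR8 and AR18 brought in calls at genes where these libraries differed from their groups. The 8 with the smallest adjusted p without them were Tnfsf8, Agrn, Axl, Myo10, Ptgfrn, Ctnna1, Smurf2 and Irgm1. Axl, a receptor tyrosine kinase gene, had 1.94, 2.01, 24.3, 1.21 and 2.07 CPM at 2 h, against 8.74, 8.73, 7.84, 6.64 and 8.07 CPM at 0 h, so AR18 was above and the other 4 below all 0 h libraries. Its difference was −0.35 ± 0.82 (adjusted p = 0.734), and −2.13 without AR8 and AR18 (adjusted p = 7.7e-07). Tnfsf8, the gene of CD30 ligand, had 13.6, 12.6, 49.3, 16.3 and 12.4 CPM at 2 h, against 36.0, 32.7, 63.3, 41.1 and 35.4 CPM at 0 h (−0.997 ± 0.43, adjusted p = 0.0704, and −1.38 without them). Myo10, an unconventional myosin gene, had 14.01 ± 11.7 CPM at 2 h and 4.17 ± 5.56 CPM at 0 h (1.73 ± 0.83, adjusted p = 0.101, and 2.43 without them). Agrn differed by −1.15, Ptgfrn by 1.44, Ctnna1 by 1.33 and Smurf2 by 0.52 without them, against −1.36, 1.43, 1.25 and 0.35 with all 10 libraries. Over the gene lists, members called higher and lower without AR8 and AR18 came to 7 and 9 for ribosome biogenesis (median −0.06), against 8 and 5 with all libraries. They came to 8 and 16 for the T cell receptor machinery and 15 and 11 for cytokine receptors, JAK kinases and STAT factors. For NF-kB genes they were 14 and 2, for cytokine genes 10 and 2 (median 1.88), and for feedback genes of cytokine receptors 5 and 2. Ribosomal protein genes had 26 lower. Each other list with 10 or more tested members changed by at most 1 member in a direction, and the type I interferon-stimulated genes kept 33 of 33 lower.

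The knockout libraries taken at 6 h, AR26 to AR30, place the 2 h levels in time. Mean log2 levels of the immediate early factors ran over 5.21 to 5.86 at 0 h, 6.12 to 7.74 at 2 h and 5.73 to 7.32 at 6 h. Those of the NF-kB genes ran over 6.70 to 6.98 at 0 h, 7.83 to 8.28 at 2 h and 6.99 to 7.70 at 6 h. Cytokine and chemokine genes ran over 1.39 to 2.05 at 0 h, 3.25 to 5.34 at 2 h and 3.72 to 6.66 at 6 h, and ribosome biogenesis genes over 6.405 to 6.63 at 0 h, 6.14 to 6.92 at 2 h and 6.602 to 7.68 at 6 h. Interferon-stimulated genes ran over 6.35 to 6.75 at 0 h, 4.08 to 4.52 at 2 h and 3.58 to 4.93 at 6 h. For each of these lists AR28 was the highest library at 6 h. At the interferon-stimulated genes AR28 had 4.93 and AR30 4.54, whereas AR26, AR27 and AR29 ran over 3.58 to 3.83, below every 2 h library. These are levels with no test between 2 h and 6 h.

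**Figure D4:**
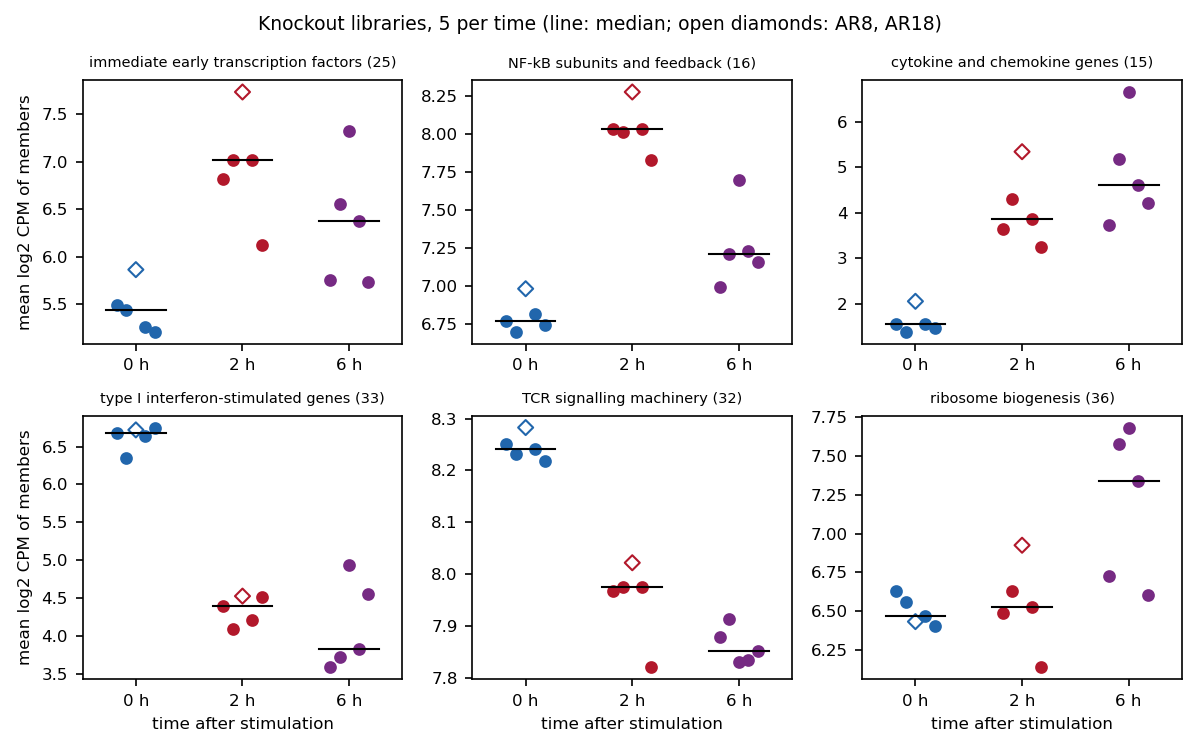
Mean log2 CPM of 6 gene lists (members tested in brackets) in each knockout library at 0, 2 and 6 h, with a line at the median of 5 libraries; open diamonds are AR8 at 0 h and AR18 at 2 h. At 2 h every library lies above the 0 h libraries for the immediate early, NF-kB and cytokine lists and below them for the interferon-stimulated and T cell receptor lists, while ribosome biogenesis genes overlap.

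Whether the response depends on Sh2b3 was asked by the interaction of genotype and time over the 20 libraries of both genotypes at 0 and 2 h. By edgeR 0 of 13809 genes were called (0.0%), and 949 had an unadjusted p under 0.05 (6.87%). Without AR8 and AR18 there were 0 calls among 13970 genes and 1319 at an unadjusted p under 0.05 (9.44%). limma with voom quality weights gave 0 calls and DESeq2 gave 2, Tex2 and Atg2a, at which the interaction by edgeR was 0.52 for Tex2 and 0.41 for Atg2a (adjusted p = 0.372 for both). In wild type 4034 of 12669 genes were higher (31.8%) and 4274 lower (33.7%). Of the 7654 genes called in the knockout and tested in wild type, 7576 (99.0%) had the same sign there, 6773 (88.5%) were called in the same direction and 1, Mtap, was called in the opposite one. Mtap, which encodes an enzyme of methionine salvage, differed by −0.35 in the knockout and 0.25 in wild type (interaction −0.61, adjusted p = 0.641). A p that misses the threshold does not show that the genotypes respond alike, so differences are given with their errors.

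The interaction is the knockout response minus the wild-type response. It was −0.50 ± 0.17 log2 units for Sh2b3 (edgeR adjusted p = 0.641), with responses of 0.52 ± 0.17 in the knockout and 1.01 ± 0.07 in wild type. Without AR8 and AR18 the Sh2b3 interaction was −0.69 (edgeR adjusted p = 0.178). For Il2ra the responses were 5.19 ± 0.32 in the knockout and 4.64 ± 0.11 in wild type (interaction 0.55 ± 0.32, adjusted p = 0.764), and for Cish 2.98 ± 0.49 in the knockout and 2.90 ± 0.24 in wild type (0.06 ± 0.58, adjusted p = 0.994). Socs3 had −1.79 ± 0.27 in the knockout and −2.33 ± 0.21 in wild type (0.53 ± 0.35, adjusted p = 0.800), Stat5b 1.43 ± 0.06 in the knockout and 1.14 ± 0.07 in wild type (0.28 ± 0.09, adjusted p = 0.641), and Klf2 −0.83 ± 0.13 in the knockout and −1.35 ± 0.22 in wild type (0.50 ± 0.25, adjusted p = 0.729). None of these passed. By list, the type I interferon-stimulated genes had medians of −2.16 in the knockout and −2.23 in wild type, and the immediate early factors 2.04 in the knockout and 1.98 in wild type. Cytokine genes had 2.57 in the knockout and 1.62 in wild type, with 10 of their members higher in the knockout and 12 in wild type. Ribosome biogenesis genes had 0.08 in the knockout and 0.25 in wild type, with 8 members higher in the knockout and 20 in wild type, and 0 of them passed the interaction by edgeR. These medians are over the same members in both genotypes, and the median of the members' own interactions was 0.08 for the interferon-stimulated genes, 0.41 for the immediate early factors, −0.11 for the cytokine genes and −0.14 for ribosome biogenesis. For the cytokine genes it thus had the opposite sign to the difference of the medians, and their knockout median was 1.88 without AR8 and AR18.

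**Figure D5:**
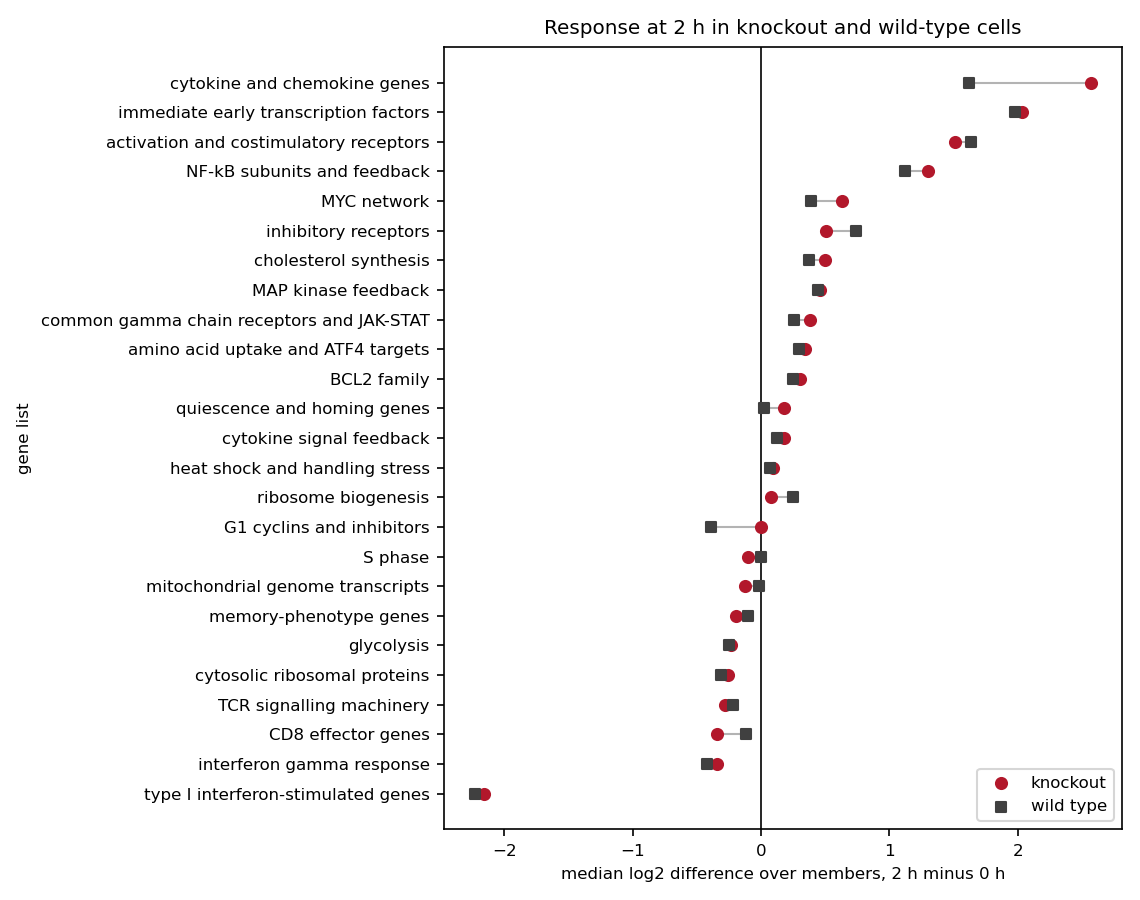
Median log2 difference, 2 h minus 0 h, over the tested members of each list in knockout (circles) and wild-type cells (squares), each from its own 10 libraries. For the interferon-stimulated genes the medians are −2.16 in the knockout and −2.23 in wild type, and for the cytokine genes 2.57 in the knockout and 1.62 in wild type, where the members' median interaction was −0.11 and the knockout median without AR8 and AR18 1.88; no gene of any list passed the interaction by edgeR.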

How the data were processed

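RNA-sequencing of polyadenylated RNA from naive OT-I CD8 T cells was used. The authors deposited whole-number read counts per gene for 60 libraries, and the submitters' processing notes list FastQC 0.119.9, STAR 2.7.9a, SAMtools, Picard 2.42.2, featureCounts 2.0.1 of Subread and GRCm39. Their settings, the annotation and the strand used in counting are not given in the sources used here, so reads of overlapping or antisense genes may not be separated. RNA was extracted with either of 2 kits, and which kit served which library is not given. Gene names came from GENCODE M21, which named 52081 of 55414 identifiers. Samples were grouped by their titles, and the library number served as the replicate number.

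The 5 knockout libraries at 2 h were compared with the 5 at 0 h in edgeR 4.0.16 (R 4.3.3), with TMM scaling, the filterByExpr rule with a minimum count of 10, robust quasi-likelihood fits and Benjamini-Hochberg adjustment over 12797 genes, calling at 0.05. Log2 differences are 2 h minus 0 h, and their standard error is the log2 difference divided by the root of F. Levels are CPM on a TMM scale over 30 libraries. The interaction of genotype and time used 20 libraries. Alternatives were DESeq2 1.42.0, its size factors, limma 3.58.1 with voom quality weights, no filter, a 1.5-fold threshold by glmTreat, leaving out each library, leaving out AR8 and AR18, fitting all 30 libraries, using 11 knockout libraries at 0 h, and a block of library numbers 10 apart.

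Depth was 13987029 to 22859516 counts in the knockout libraries, and no pair of libraries agreed within sampling noise. Intervals for counts cover counting error only. Named genes were drawn from the 15 largest rises and 15 largest falls among genes of at least 4 CPM called with and without AR8 and AR18, up to 5 members per list by smallest adjusted p, a fixed set that includes Sh2b3, Il2, Il2ra, Ifng and Cd69, and the 8 genes whose call is lost with AR8 and AR18. The other genes named in the text were chosen after their values were seen. Results for some genes are not reported here. The members, the gene lists and their tests were chosen with earlier results of these data known. Promoter windows came from RefSeq on GRCm38.p6, a different build from that of the files, and serve for sequence only. They were matched by symbol, which gave a window to 9145 tested genes.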

Additional observations from a re-analysis of the deposited data

Results flagged for a closer look

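In each group of 5 libraries the highest or lowest library was marked where its gap to the nearest other library was a larger part of the group's range than Dixon's critical value at the 95% level. Over 52 groups of list levels and 392 groups of gene levels, 8 and 54 were marked. Chance marks about 1 in 20 groups that were not chosen by their values. The genes here are the named ones, and 8 of them were named because their call is lost with AR8 and AR18. That rate therefore does not hold for them, and their marks on AR8 and AR18 are no separate evidence. The marks fell most often on AR18 (18) and AR8 (13), which stand apart as described, and on AR20 (12). Among list levels at 2 h, given as mean log2 CPM, the marked values were 6.07 in AR20 for the activation and costimulatory receptors, 7.82 in AR20 for the T cell receptor machinery and 3.82 in AR18 for the CD8 effector genes. Among list levels at 0 h, given as mean log2 CPM, the marked values were 4.13 in AR10 for the MAP kinase feedback genes, 2.05 in AR8 for the cytokine and chemokine genes, 8.48 in AR10 for the quiescence and homing genes, 5.83 in AR6 for the MYC network and 6.35 in AR7 for the type I interferon-stimulated genes.

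Among single genes, the marks were as follows. AR16 lay above the other 2 h libraries at Stat5a (326 CPM). AR18 lay above the other 2 h libraries at Mx1 (4.38 CPM), Jun (98.3 CPM), Socs3 (125 CPM), Tbx21 (149 CPM), Tnfsf8 (49.3 CPM), Agrn (67.8 CPM), Axl (24.3 CPM), Ptgfrn (88.1 CPM), Ctnna1 (97.9 CPM), Lck (757 CPM), Cd163l1 (129 CPM) and Il15ra (6.63 CPM). AR18 lay below the other 2 h libraries at Phf11a (0.122 CPM), Cd3g (169.6 CPM), Mxi1 (46.1 CPM), Mxd4 (132.9 CPM) and Eno1 (182 CPM). AR19 lay below the other 2 h libraries at Cd3d (231 CPM) and Cd8a (346 CPM). AR20 lay above the other 2 h libraries at Il6ra (173 CPM), Il7r (741 CPM) and Txnip (657 CPM). AR20 lay below the other 2 h libraries at Chst2 (13.3 CPM), Mlx (29.5 CPM), Eomes (10.9 CPM), Irf4 (235 CPM), Dusp6 (19.7 CPM), Bhlhe40 (22.7 CPM) and Cd5 (221 CPM). AR6 lay above the other 0 h libraries at Phgdh (115 CPM) and Klf10 (21.03 CPM). AR7 lay below the other 0 h libraries at Gbp6 (61.2 CPM) and Irgm1 (119 CPM). AR8 lay above the other 0 h libraries at Ramp3 (12.2 CPM), Nfkb2 (130.2 CPM), Gbp8 (131.3 CPM), Agrn (208 CPM), Myo10 (14.1 CPM), Ptgfrn (32.4 CPM), Smurf2 (161 CPM), Spry1 (3.78 CPM) and Cd163l1 (282 CPM). AR8 lay below the other 0 h libraries at Afp (6.73 CPM), Tet1 (26.2 CPM) and Socs4 (49.3 CPM). AR9 lay above the other 0 h libraries at Il2 (0.0707 CPM) and S1pr1 (584 CPM). The Il2 mark is the only 1 read of that gene at 0 h, so it does not set AR9 apart. The mark at Phf11a, at 0.122 CPM, likewise lies near the floor. AR9 lay below the other 0 h libraries at Bcl2 (104 CPM) and Jund (341 CPM). AR10 lay above the other 0 h libraries at Dusp8 (0.721 CPM) and Txnip (920.3 CPM). AR10 lay below the other 0 h libraries at Zfp683 (3.31 CPM) and Slc2a1 (34.5 CPM).

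No difference between the genotypes was marked, since the interaction called 0 genes by edgeR.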

How the results depend on the processing

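With alternatives other than a fold threshold, between 3622 and 4126 genes were higher and between 3638 and 4299 lower at 2 h, against 3829 and 3922 as reported; leaving out 1 library gave 3622 to 3877 higher and 3638 to 3950 lower. Tested against a change of at least 1.5-fold with glmTreat, 1494 genes were higher (11.7%) and 1776 lower (13.9%). For the interaction, leaving out 1 library gave 0 to 3 calls, the 3 (Pea15a, Ezr and Atg2a) without wild-type library AR15 at 2 h, and DESeq2 gave 2. Fitted with library numbers 10 apart as a replicate block, 4027 genes were higher and 4178 lower at 2 h, and the interaction had 2 calls, Fam102b and Vps37b. The labels do not say whether libraries with numbers 10 apart share a source, and the main fits carry no term for it. Correlations of deviations within such pairs were 0.12, 0.15, 0.46, 0.05 and 0.28. Of the 5 libraries at 2 h, 4 matched their own number best, the exception being AR17, which matched AR6 better than AR7. Within their groups at 0, 2 and 6 h, the gamma delta marker sums were highest in AR8, AR18 and AR28, at 995, 520 and 445 CPM. The erythroid sums were highest in AR10, AR20 and AR30, at 105.3, 77.9 and 64.0 CPM. Whether the libraries are paired is not settled here. Under the block, among the genes named, Hspa1b, Hspa1a and Tnfaip3 lost their calls, and 9 genes not called as reported gained one.

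Of 196 genes named and tested, 41 changed their side of the threshold in at least 1 alternative, and 0 reversed. The glmTreat threshold changed 27 of these, among them 0.454 for Ncl and 0.0503 for Nop16 (adjusted p). Without the filter on low counts Tnfaip3, Ier2, Eomes, Ifng, Tbx21, Cd44 and Cd5 lost their calls, and with all 30 libraries in a fit Parp14, Ifng, Klf10 and Mtap did, at an adjusted p of 0.0697 for Parp14. The causes were not tested. At these depths genes without enough reads in 5 libraries, such as the neutrophil and most NK markers, were not tested. Stimulation and time in culture cannot be told apart, because no unstimulated 2 h group was used here.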
